A study of Mus musculus with 36 samples.

Results

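The extracellular matrix is the mesh of secreted proteins that surrounds cells, and the gene group described here holds collagens, laminins, other matrix proteins and the enzymes that fold, cross-link or cut them. The group was named as 48 genes and was chosen by the measured intensities of 4 of them, Ptx3, Lamc3, Pcolce and Serpinf1, which were lower in nicotine-exposed than in control mouse embryos. The other 44 genes were named for their place in the matrix. A probe was found for 45 of the 48, and Fbn1, Fbn2 and Loxl2 were not analysed here. Each gene was represented by its probe with the highest mean, and 41 genes reached an intensity of 32 on at least 12 of 36 arrays, out of 9678 genes in the whole data set that did so. The 4 genes that did not were Col11a1 (highest intensity 22.8, no array at the minimum), Postn (16.7, no array), Lama4 (33.8, 1 array) and Col6a2 (40.3, 4 arrays). Just inside the limit were Lamb1, which reached it on 15 arrays, Lamc3 on 22 and Ptx3 on 30.

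RNA from 36 whole male embryos of the inbred strain C57BL/6J, collected at 9.5 days post coitum, was measured on Illumina bead arrays, with 1 array per embryo. The mothers of the 12 ethanol embryos drank 10% (v/v) ethanol, those of the 12 nicotine embryos drank 100 µg/ml freebase nicotine, and those of the 12 control embryos drank water. Exposure was by voluntary drinking and ran from 0.5 to 8.5 days post coitum, so the embryos were taken after it had ended. Litters are not named in the labels, so p-values measure the spread between embryos, some of which may be litter mates.

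Before a fibrillar collagen chain becomes matrix it is hydroxylated and folded in the endoplasmic reticulum, trimmed outside the cell and cross-linked. Fibrillar collagens give tissue its tensile strength, while collagen IV, laminins, nidogens and perlecan form the basement membranes beneath epithelia and around vessels. In the embryo at this stage basement membranes and fibronectin guide somite formation and cell migration, and the collagen-rich connective tissues are only beginning to form.

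Some arrays stood apart. Arrays numbered 1 to 6 and 7 to 12 in the labels formed separate sets: 875 of 9678 genes (9.04%) had ranges that did not overlap between the sets, and the labels give no reason. In the nicotine embryo 3 the summed intensity of 11 heart muscle markers was 1382, against 29216 to 68386 in the other arrays. In the control embryo 3 the summed level of placenta and decidua markers was 30689, against at most 2967 in every nicotine or ethanol embryo. The median of this sum was also highest in controls, at 421, against 124 after ethanol and 235 after nicotine. Markers of the tissues a whole embryo should hold were otherwise present, including 11 of 11 for heart muscle, 9 of 9 for primitive red cells and 12 of 14 for endothelium. Macrophage markers were mostly below the minimum, with 2 of 9 kept.

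Ptx3 encodes a long pentraxin, a secreted pattern-recognition protein that also stabilises hyaluronan-rich matrix. Its intensity ran from 46.9 to 295 in control embryos, with a median of 109, and from 23.5 to 246 in ethanol embryos, with a median of 91.6. In nicotine embryos it ran from 13.9 to 177, with a median of 42.0. The groups overlapped, although 7 of 12 nicotine embryos lay below every control embryo. The mean was 1.04 lower than in controls on the log2 scale, which here is log2(intensity + 16) throughout. Of the 12 pairs of nicotine and control embryos with the same number, 10 had the lower value in the nicotine embryo. A further probe for Ptx3 differed by -0.69.

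Lamc3 encodes the laminin gamma 3 chain, a component of basement membranes. Control embryos ranged from 15.4 to 110.4, with a median of 66.9, and ethanol embryos from 24.9 to 93.9, with a median of 50.5. Nicotine embryos ranged from 10.0 to 69.9, with a median of 17.4, which is below the minimum of 32. The groups overlapped: 9 nicotine embryos lay at 27.6 or lower, 4 of them below every control, and embryos 5, 9 and 11 lay at 69.9, 56.2 and 52.4. The mean log2 difference from controls was -0.80, with the lower value in the nicotine embryo in 11 of 12 pairs. The other Lamc3 probes were not kept, with mean intensities of 4.3, 8.7 and 7.8, and differed by -0.05, -0.34 and 0.20.

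Pcolce encodes an enhancer of the protease that removes the C-terminal propeptide of procollagen. Its median intensity was 532 in controls (305 to 709), 499.7 after ethanol (283 to 639) and 336 after nicotine (179 to 521), a log2 difference of -0.55 for nicotine against control. Serpinf1 encodes pigment epithelium-derived factor, a secreted serpin that binds collagen and restrains vessel growth. Its median was 2755 in controls (1513 to 3511), 2581 after ethanol (1888 to 3341) and 1871 after nicotine (971 to 3231), a log2 difference of -0.51. In both genes 4 nicotine embryos lay below all controls and 11 of 12 pairs had the lower value in the nicotine embryo. These values chose the 4 genes, so they are given without a test.

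**Figure D1:**
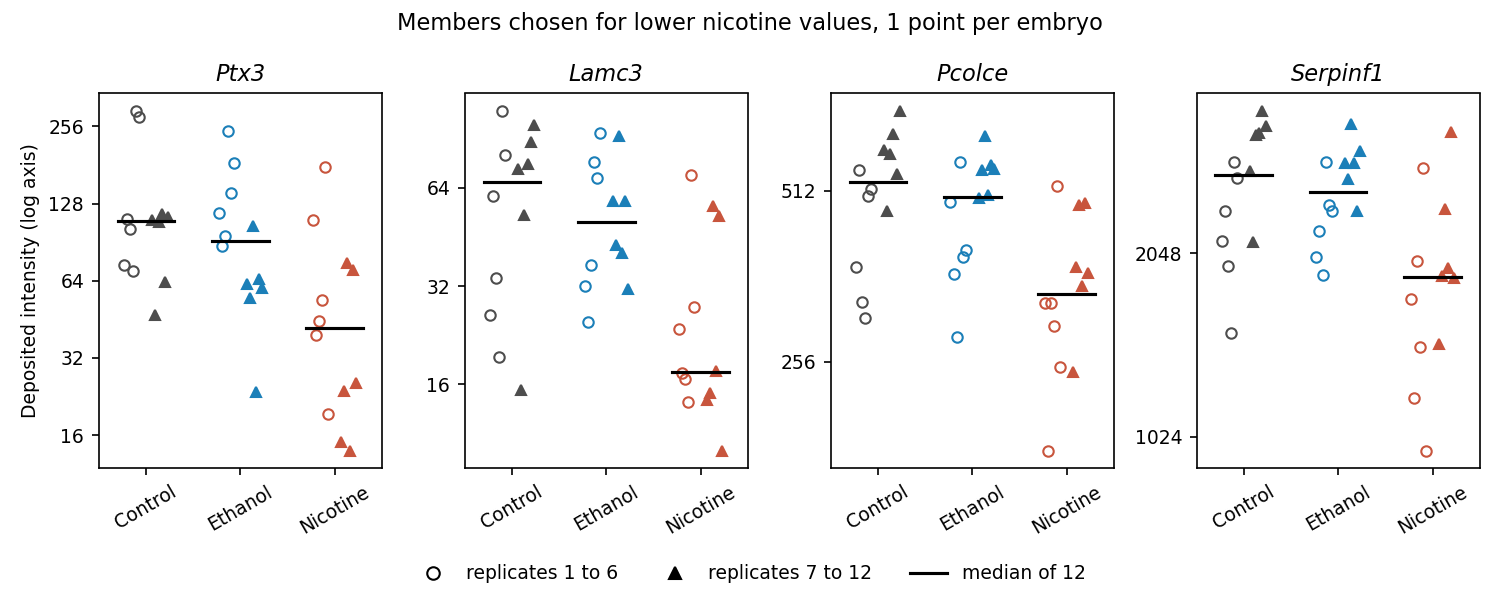
Deposited intensity (log axis) of Ptx3, Lamc3, Pcolce and Serpinf1 in each of 36 embryos, by group, with open circles for embryos 1 to 6, triangles for embryos 7 to 12 and a bar at the median of 12. The nicotine medians are 42.0, 17.4, 336 and 1871, against 109, 66.9, 532 and 2755 in controls, and the groups overlap in all 4 genes.

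The levels of the 4 genes after ethanol lay closer to the controls. The log2 differences of ethanol from control were -0.23 for Ptx3, -0.07 for Lamc3, -0.07 for Pcolce and -0.01 for Serpinf1. Nicotine differed from ethanol by -0.81, -0.73, -0.48 and -0.50 in the same order. These contrasts share the nicotine or control arrays that chose the genes, and they too are description only. Without nicotine embryos 2 and 3, the log2 differences from control were -1.03, -0.74, -0.46 and -0.46.

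The promoters of 3 of the 4 genes are shown because these genes chose the group. The windows come from RefSeq on the build GRCm38.p6 and run from 250 bases before to 50 bases after the gene's start. Capitals mark matches, on either strand, to the TATA box (TATAAA), the CCAAT box (CCAAT), the GC box (GGGCGG) and an AP-1 site (TGANTCA). The Ptx3 window is chr3:66219637-66219936 on the plus strand, the Pcolce window chr5:137611355-137611654 on the minus strand, and the Serpinf1 window chr11:75422574-75422873 on the minus strand. Lamc3 lies on chromosome 2.
Ptx3: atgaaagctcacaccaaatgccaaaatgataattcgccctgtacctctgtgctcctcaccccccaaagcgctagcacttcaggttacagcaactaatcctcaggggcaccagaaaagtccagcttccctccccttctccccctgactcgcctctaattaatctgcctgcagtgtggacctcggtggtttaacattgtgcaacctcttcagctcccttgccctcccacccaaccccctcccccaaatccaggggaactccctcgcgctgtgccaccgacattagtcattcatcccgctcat
Pcolce: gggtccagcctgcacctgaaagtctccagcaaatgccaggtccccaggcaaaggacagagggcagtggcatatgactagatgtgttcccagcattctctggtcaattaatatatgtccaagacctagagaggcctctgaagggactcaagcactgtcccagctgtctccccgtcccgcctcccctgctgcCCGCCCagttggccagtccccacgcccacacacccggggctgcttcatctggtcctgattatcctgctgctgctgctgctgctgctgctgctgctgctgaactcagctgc
Serpinf1: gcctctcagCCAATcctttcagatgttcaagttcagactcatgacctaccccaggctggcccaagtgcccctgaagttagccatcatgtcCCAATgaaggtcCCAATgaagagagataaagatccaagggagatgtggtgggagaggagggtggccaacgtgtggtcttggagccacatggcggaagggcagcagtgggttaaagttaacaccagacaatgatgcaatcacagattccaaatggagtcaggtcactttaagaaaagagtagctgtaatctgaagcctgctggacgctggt

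The Ptx3 window held none of the 4 motifs, the Pcolce window held a GC box starting at base -60, and the Serpinf1 window held CCAAT boxes at -241, -160 and -148, counted from the start. For comparison 27025 promoter windows were searched, 1 for each gene in the reference, whether or not it was measured here. Of these, 14.16% held the TATA box, 37.92% the CCAAT box, 35.91% the GC box and 7.933% the AP-1 site. A window was listed for 27 of the 41 measured genes of the group. For the 5 of these with more than 1 listed window, the window of lowest coordinate was used. Of these 27, 3 held the TATA box, 11 the CCAAT box, 19 the GC box and 1, Col6a1, the AP-1 site. With every listed window counted, 13 held the CCAAT box and 21 the GC box, and these counts have no matching percentage over all genes. The median GC content of the 27 genes, at 1 window each, was 60.3%, against 52.7% over all windows. GC boxes are themselves made of G and C.

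The remaining 37 measured genes were mostly lower in nicotine than in control embryos. Of the 37, 32 had a lower mean and 5 a higher mean, and the median log2 difference was -0.24, ranging from -0.70 in Dcn to 0.12 in Lama5. Over all 9678 genes 45.5% were lower and the median was 0.01. None of the 37 passed an adjusted p of 0.05 in limma's moderated test, with or without the embryo number as a block, where 0.00591% of all 16927 probes passed without the block and 1.15% with it. The lowest adjusted p by limma was 0.27 without the block and 0.0608 with it, in Lox. At an unadjusted p of 0.05, 13 of the 37 were lower and 0 higher, beside 3.25% of all probes lower. With the block 18 were lower and 0 higher, beside 8.72%. Since this contrast chose the group, nothing is read from these counts.

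**Figure D2:**
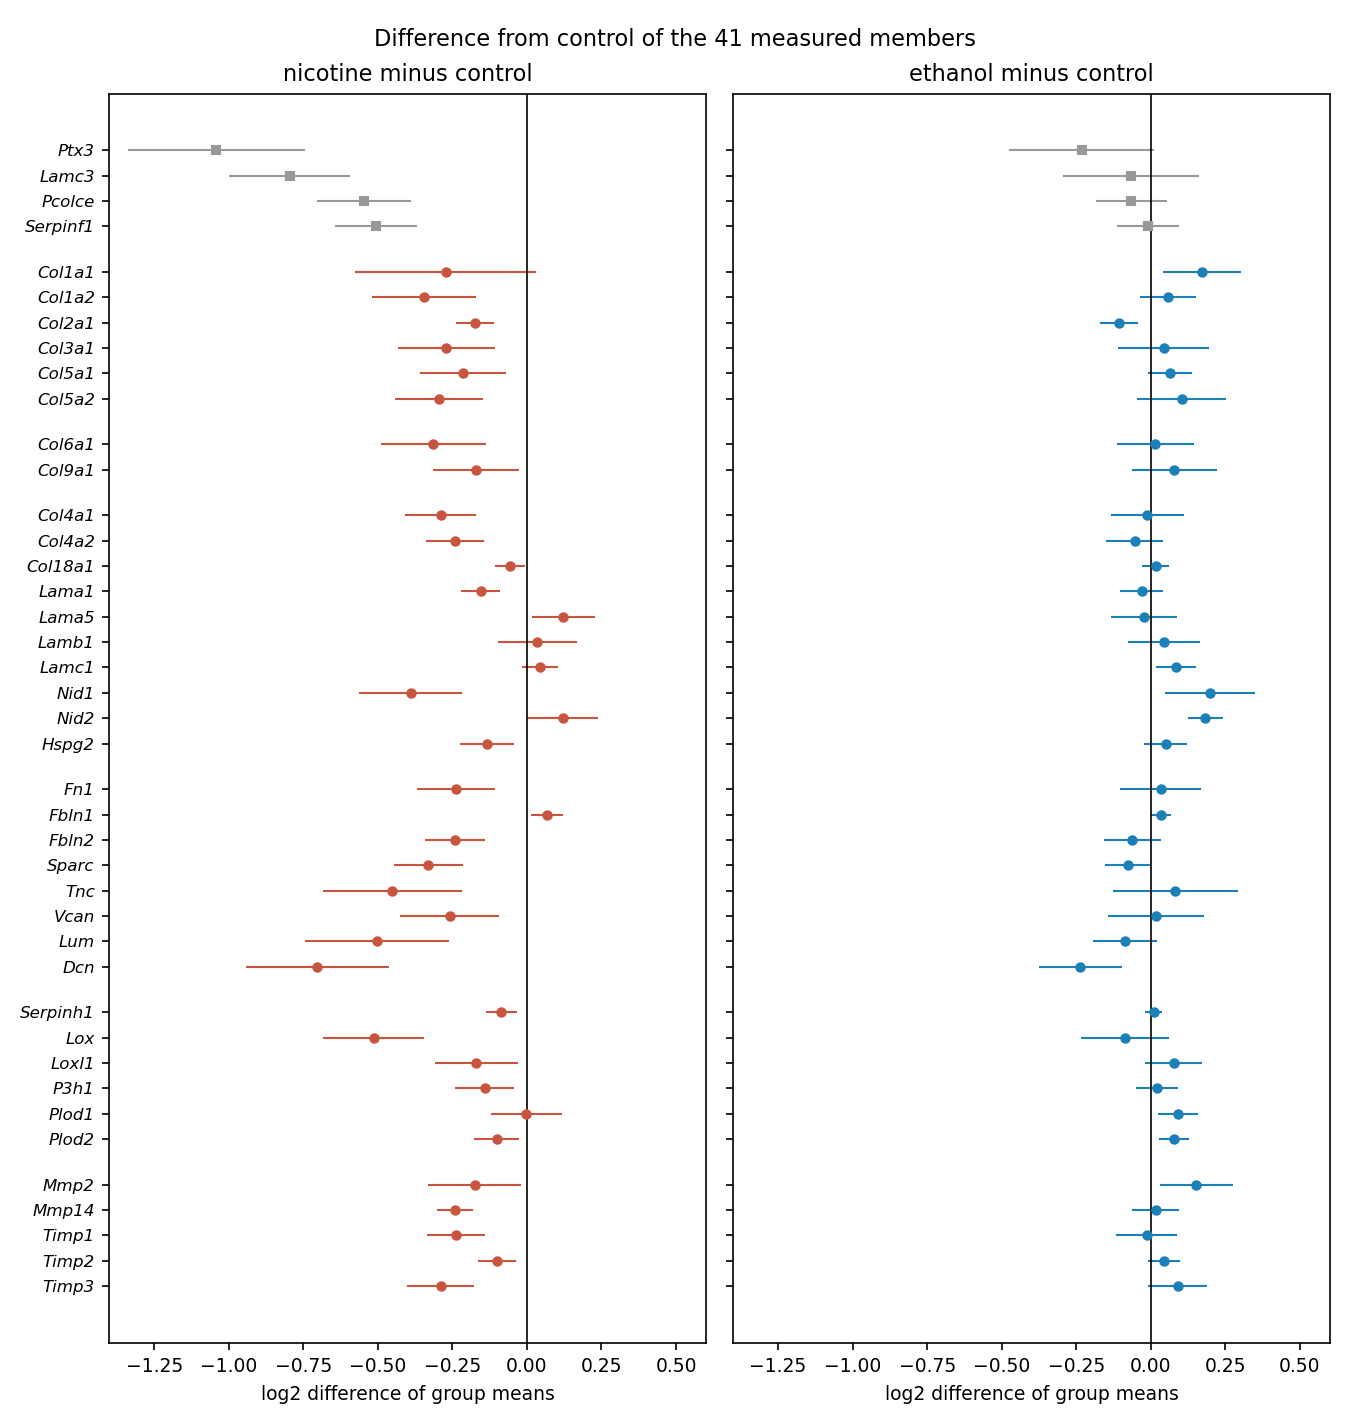
Log2 difference of the group mean from control for the 41 measured genes, nicotine on the left and ethanol on the right, ordered by role. Bars are the standard error of the 12 same-number pair differences, and grey squares are the 4 genes chosen for their nicotine values. Among the other 37 genes, 32 nicotine points and 11 ethanol points lie below 0.

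The median of the group rested in part on 2 embryos. Averaged over the 37 genes, nicotine embryo 2 lay 0.76 below the controls of its set on the log2 scale, with 35 of 37 genes lower, and nicotine embryo 3 lay 0.47 below, with 32 lower. The other 10 nicotine embryos lay between -0.30 and 0.09. Control embryos ranged from -0.30, in embryo 4, to 0.12, and ethanol embryos from -0.23 to 0.29. Over all 12 nicotine embryos the mean was -0.21 (SD 0.227, n = 12). Without nicotine embryo 2 the median difference of the 37 genes was -0.16, and without embryos 2 and 3 it was -0.12, with 32 genes lower. At an unadjusted p of 0.05, 6 genes were lower without embryo 2, and 3 lower and 1 higher without both. Embryos 7 to 12 alone gave a median of -0.18.

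**Figure D3:**
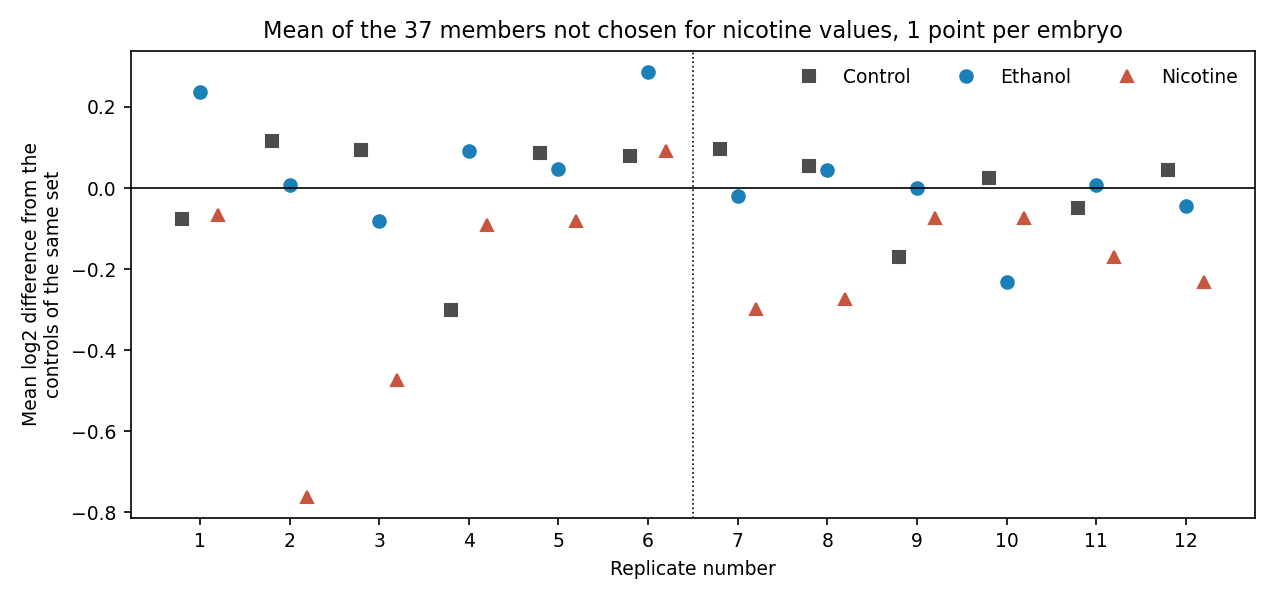
Mean log2 difference from the control embryos of the same set, averaged over the 37 matrix genes not chosen for their nicotine values, for each embryo by number, with squares for control, circles for ethanol and triangles for nicotine. The dotted line separates embryos 1 to 6 from 7 to 12. Nicotine embryos 2 and 3 are the lowest points, at -0.76 and -0.47.

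Markers of other tissues also differed between the means of all 12 nicotine and all 12 control embryos. All 10 kept tail bud and early patterning genes, such as Tbx6 and Cdx2, had higher means after nicotine than in controls. Their median log2 difference was 0.74, and whether they mark stage or the amount of tail bud was not tested. Of these 10 genes, 7 passed the adjusted p of 0.05 in limma with the embryo number as a block, beside 1.15% of all probes. Without the block 0 passed and 7 were higher at an unadjusted p of 0.05, beside 335 of 9678 genes. Their summed intensity ran from 3283 to 7445 in controls (median 5557), from 4082 to 7906 after ethanol (median 4950.2) and from 4421 to 10947 after nicotine (median 8931). Nicotine means were below control means for 8 of 13 mesenchyme markers (median -0.08), 12 of 12 endothelial markers (-0.28) and 4 of 4 notochord and cartilage precursor markers (-0.24). The same held for 2 of 2 macrophage markers (-0.52) and 6 of 7 neuron markers (-0.34). Other lists were split, with 4 of 9 primitive red cell markers (0.02) and 5 of 9 visceral yolk sac markers (-0.02) lower. With the block 1 mesenchyme marker, Twist2, and 1 macrophage marker, Laptm5, passed as lower, and neither passed without it. These blocked calls depended on single embryo numbers: over all 16927 probes the block gave 194 calls, but 0 without number 6, 0 without number 7 and 1, a higher level, without number 2. Heart muscle markers were lower in 11 of 11 (-0.33), although their summed median was 50758 after nicotine and 48052 in controls, and nicotine embryo 3 was at 1382. Summed endothelial markers had medians of 9078 in controls (6693 to 11048), 9417 after ethanol (5678 to 10746) and 7859 after nicotine (4993 to 10406). For mesenchyme the medians were 7668 (6069 to 8416), 8174 (6703 to 8860) and 7164 (6004 to 8621). The part of these shifts in the matrix values was not tested. In whole embryos, fewer cells of a type and less RNA per cell cannot be told apart.

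Fibrillar collagens, the rope-forming collagens, were lower in 6 of 6 measured genes after nicotine, with a median of -0.27, and none passed the test. The chains of type I collagen, the main collagen of bone and skin, differed by -0.27 in Col1a1 (SE 0.226) and -0.34 in Col1a2 (SE 0.201). Col1a1 ran from 453 to 1456 in controls and from 277 to 1389 after nicotine, so the nicotine range covered most of the control range. Col2a1, the collagen of notochord and cartilage, differed by -0.17 (SE 0.0771) and was lower in 10 of 12 pairs. Col3a1, Col5a1 and Col5a2 differed by -0.27, -0.21 and -0.30. Of the other collagens, Col6a1, a chain of the beaded filaments around cells, differed by -0.31 and Col9a1, which decorates cartilage fibrils, by -0.17.

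Dcn and Lum had the lowest means among the matrix glycoproteins and proteoglycans relative to controls, where 7 of 8 genes were lower with a median of -0.29. Decorin, encoded by Dcn, is a small leucine-rich proteoglycan that binds collagen fibrils and spaces them. Its intensity ran from 802 to 1825 in controls (median 1176), from 797 to 1318 after ethanol (median 1020.0) and from 248 to 1517 after nicotine (median 832). The difference of nicotine from control was -0.70 (SE 0.197, limma adjusted p = 0.27, or 0.0691 with the block), lower in 10 of 12 pairs, and 5 nicotine embryos lay below every control. A further kept Dcn probe gave -0.74. Without nicotine embryos 2 and 3, at 248 and 347, the difference was -0.45.

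Lumican, encoded by Lum, is a related proteoglycan of collagen fibrils. Lum ran from 1937 to 3195 in controls (median 2693), from 1982 to 3269 after ethanol (median 2375) and from 610.4 to 4225 after nicotine (median 1822.5). The nicotine embryos reached beyond the controls on both sides, with 7 below and 2 above every control. The difference was -0.50 (SE 0.206, limma adjusted p = 0.588), and -0.23 without nicotine embryos 2 and 3.

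Sparc, a collagen-binding matricellular protein made in parietal endoderm and mesenchyme, ran from 3322 to 5160.0 in controls (median 4305), from 3226 to 4718 after ethanol (median 3950.1) and from 1935 to 4583 after nicotine (median 3524). Its difference was -0.33 (SE 0.103, limma adjusted p = 0.303), lower in 11 of 12 pairs, and -0.21 without nicotine embryos 2 and 3. The other kept Sparc probes gave -0.21 and -0.58. Among 11 kept parietal endoderm markers, 6 had lower and 5 higher means after nicotine, and their summed medians were 9305 in controls (6934 to 13015) and 8807 after nicotine (7075 to 14747), whose part was not tested. Tnc, an adhesion-modulating glycoprotein, differed by -0.45 (SE 0.196), and Vcan, a large hyaluronan-binding proteoglycan of migrating-cell pathways, by -0.26. Fn1, the main adhesive glycoprotein of early embryonic matrix, differed by -0.24, Fbln2 by -0.24 and Fbln1 by 0.07. Further kept probes gave 0.10, -0.03 and 0.08 for Fn1 and -0.05, -0.01 and 0.03 for Fbln1.

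Lox encodes lysyl oxidase, the copper enzyme that starts collagen and elastin cross-links. Its intensity ran from 48.6 to 137 in controls (median 78.8), from 47.3 to 142 after ethanol (median 71.8) and from 12.0 to 141 after nicotine (median 55.2). Here 5 nicotine embryos lay below every control and 1, embryo 6, above all of them. The difference was -0.51 (SE 0.178, limma adjusted p = 0.403, or 0.0608 with the block), and -0.35 without nicotine embryos 2 and 3. The other folding and cross-linking genes were close to the controls: Serpinh1, the collagen chaperone of the endoplasmic reticulum, at -0.09, the hydroxylases P3h1, Plod1 and Plod2 at -0.14, -0.00 and -0.10, and Loxl1 at -0.17.

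**Figure D4:**
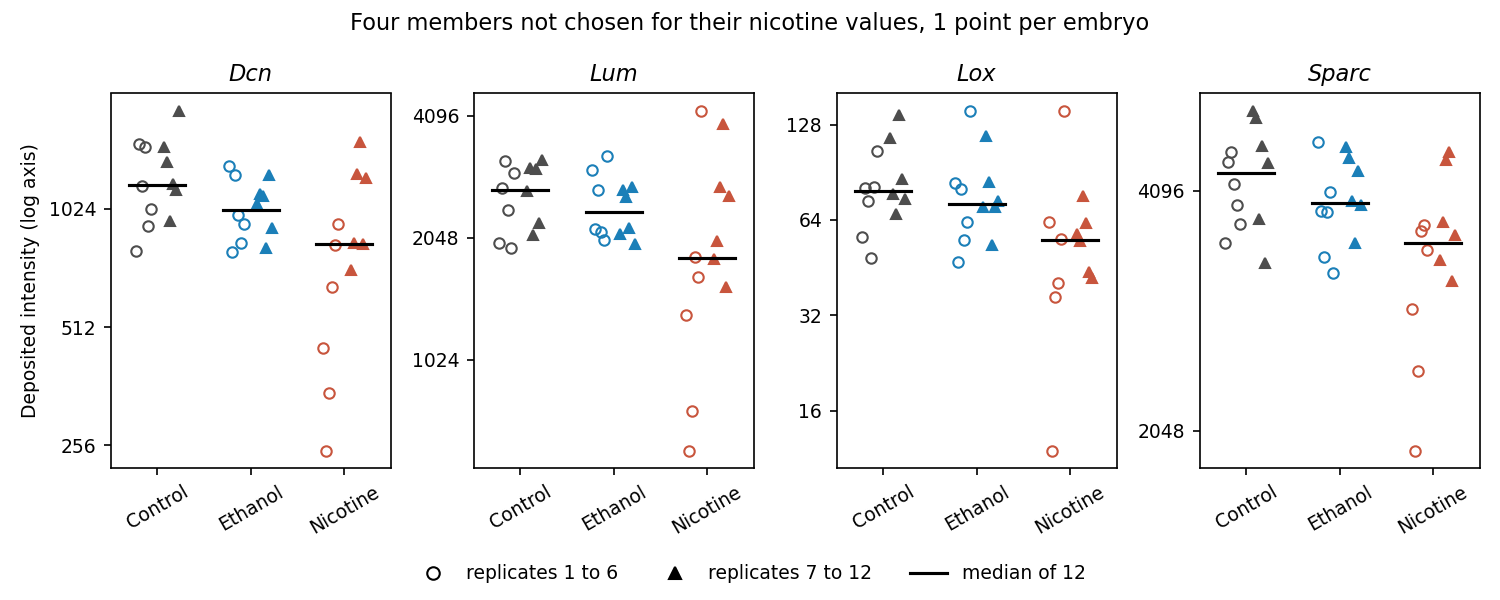
Deposited intensity (log axis) of Dcn, Lum, Lox and Sparc in each of 36 embryos, by group, with open circles for embryos 1 to 6, triangles for embryos 7 to 12 and a bar at the median of 12. The lowest nicotine points, 248 for Dcn, 610.4 for Lum, 12.0 for Lox and 1935 for Sparc, are all embryo 2.

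Mmp14 is a membrane-anchored collagenase that also activates Mmp2. Mmp14 ran from 1801 to 2920.4 in controls (median 2458), from 1912 to 3844 after ethanol (median 2423) and from 1347 to 2564 after nicotine (median 2091). Its difference was -0.24 (SE 0.0953, limma adjusted p = 0.553, or 0.0792 with the block), with the lower value in the nicotine embryo in 11 of 12 pairs, and -0.16 without nicotine embryos 2 and 3. Mmp2, the gelatinase, differed by -0.18. The tissue inhibitors of metalloproteinases Timp1, Timp2 and Timp3 differed by -0.24, -0.10 and -0.29. All 5 proteases and inhibitors thus had lower nicotine means, with a median of -0.24.

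Basement membrane genes were less uniform, with 6 of 10 lower, 4 higher and a median of -0.10. The chains of collagen IV, the network collagen of basement membranes, differed by -0.29 in Col4a1 (SE 0.127) and -0.24 in Col4a2 (SE 0.0990, limma adjusted p = 0.593). Col4a2 ran from 1312 to 2245 in controls (median 1871), from 1248 to 2290.4 after ethanol (median 1820.2) and from 1074 to 2229 after nicotine (median 1508), with 1 nicotine embryo below every control. Nid1, which links laminin to collagen IV, differed by -0.39 and its paralogue Nid2 by 0.12. The laminin chains Lama5, Lamb1 and Lamc1 differed by 0.12, 0.04 and 0.04 and Lama1 by -0.15. Hspg2, which encodes perlecan, differed by -0.13 and Col18a1 by -0.06.

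Ethanol means lay on both sides of the control means. Against controls, 11 of the 37 genes were lower and 26 higher, with a median of 0.03, beside 0.01 over all genes. None passed in limma (lowest adjusted p = 0.99 with the block), where 0.0% of all probes passed, and 0 of 37 reached an unadjusted p of 0.05, beside 1.05% of all probes. With the block 1 did, beside 4.63%. The split depended on the set, since 8 of 37 were lower in embryos 1 to 6 alone and 23 of 37 in embryos 7 to 12 alone. The 95% intervals of the 37 differences reached no further than -0.64, in Dcn, and 0.63, in Col1a1, and they extended by 0.117 to 0.55 on each side of the difference, depending on the gene. Nid2 differed by 0.18 (95% interval -0.07 to 0.43) and was higher in 10 of 12 pairs, and Col2a1 by -0.11 (-0.26 to 0.05), lower in 10 of 12 pairs. Dcn differed by -0.24 (-0.64 to 0.16), Nid1 by 0.20 (-0.17 to 0.57), Mmp2 by 0.15 (-0.14 to 0.45) and Lamc1 by 0.08 (-0.13 to 0.30).

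Nicotine embryos were then compared with ethanol embryos. Of the 37 genes, 35 were lower after nicotine and 2 higher, Lama5 and Fbln1, although further kept Fbln1 probes gave -0.09, -0.06 and -0.00. The median of the 37 was -0.25, beside 0.00 over all genes. None passed in limma (lowest adjusted p = 0.471, or 0.0720 with the block), where 0.0% of all probes passed without the block and 0.408% with it, and 12 were lower at an unadjusted p of 0.05, beside 2.61% of all probes. With the block 21 were lower at that p, beside 6.6%. Without nicotine embryo 2, 6 were lower at an unadjusted p of 0.05 and the median was -0.18, and without embryos 2 and 3 there were 2, with a median of -0.15. This contrast shares its nicotine embryos with the contrast that chose the group, so its count is a description. Nid1 had the smallest p: it ran from 196 to 432 after ethanol (median 321) and from 70.9 to 436 after nicotine (median 207), a difference of -0.59 (95% interval -0.96 to -0.22). A dimmer Nid1 probe gave -0.07. Markers of other tissues differed too. Nicotine means were below ethanol means for 9 of 9 visceral yolk sac markers (median -0.42) and 12 of 12 endothelial markers (-0.36). They were above ethanol means for 10 of 10 tail bud and early patterning genes (0.91). The mean of the yolk sac markers differed by 0.28 in embryos 1 to 6 and by -1.28 in embryos 7 to 12. Without the block 0 of the 9 reached an unadjusted p of 0.05. The summed yolk sac markers ran from 285 to 19648 after ethanol and from 252 to 32016 after nicotine. Their part in the matrix values was not tested.

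Timp3, the matrix-bound inhibitor, ran from 339 to 569.8 after ethanol and from 196 to 497 after nicotine, a difference of -0.38 (95% interval -0.63 to -0.13), with 6 nicotine embryos below every ethanol embryo. A dimmer probe for Timp3 gave 0.06. Tnc differed by -0.53 (-0.93 to -0.14), Col6a1 by -0.33 (-0.60 to -0.06), Mmp14 by -0.26 (-0.45 to -0.06) and Sparc by -0.25 (-0.46 to -0.04). Embryo means over the 37 genes were lower in the nicotine embryo in 11 of 12 pairs with ethanol, and in 8 of 12 pairs with control.

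A wider list of 83 other matrix and matrix receptor genes, kept by the same filter, had a median nearer 0. After nicotine, 60 were lower than in controls and 23 higher, with a median of -0.08. None passed without the block, where 13 were lower and 1 higher at an unadjusted p of 0.05. Of all 9678 genes, 300 were lower and 335 higher at that p. With the block 1 of 83 was lower, near the 1.15% of all probes: Mfap2, a microfibril-associated glycoprotein, at -0.37 (limma adjusted p = 0.0339), a call lost without embryo number 2, 6 or 7. The elastic fibre protein Mfap4 differed by -0.52, the collagen-binding Tgfbi by -0.53, and the collagens Col26a1 and Col23a1 by -0.50 and -0.61. The collagen receptor subunit Itga11 differed by -0.65, with a mean intensity of 42.2 in controls and 20.6 after nicotine, below the minimum of 32, and the collagen receptor kinase Ddr1 by 0.19. Among the folding genes Crtap and P3h3 differed by -0.19 and -0.28. Among the proteases Adam17, a sheddase, differed by 0.15 and Plat, tissue plasminogen activator, by -0.34. Of the basement membrane genes Smoc1 differed by 0.18 and Fras1 by -0.19. By list, the lower genes were 8 of 11 other collagens, 3 of 8 other basement membrane genes, 21 of 26 other glycoproteins and proteoglycans, 9 of 12 folding and processing genes, 9 of 11 proteases and inhibitors and 10 of 15 receptors. After ethanol 34 of the 83 were lower and none passed in either fit, beside 0.0% of all probes, with 2 at an unadjusted p of 0.05, beside 1.05%.

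Against ethanol, 63 of the 83 were lower after nicotine, and with the block 2 passed, beside 0.408% of all probes. Col26a1 differed by -0.57 (limma adjusted p = 0.0443). The other, Adam12, reached the minimum of 32 on only 12 arrays, with means of 37.4 after ethanol and 20.4 after nicotine, so most of its values lay under the minimum and nothing is read from its call. Neither passed without the block, where 19 of the 83 were lower at an unadjusted p of 0.05, beside 2.61% of all probes. With the block no probe of the 16927 passed without embryo number 2, 6 or 8.

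The size of the nicotine difference was next compared between embryos 1 to 6 and 7 to 12. None of the 37 genes passed the interaction test in limma (lowest adjusted p = 0.655, or 0.398 with the block), where 0.0% of all probes passed without the block and 0.0118% with it, and 1 reached an unadjusted p of 0.05, beside 6.94% of all probes. That gene was Dcn, which differed by -1.08 in embryos 1 to 6 and -0.33 in embryos 7 to 12 (interaction 0.75, SE 0.328). Vcan differed by -0.57 and 0.05, Col1a2 by -0.59 and -0.10, and Col6a1 by -0.10 and -0.53. For ethanol none passed (0.0% of all probes passed, lowest adjusted p = 0.999 with the block) and 1, Col5a2, reached an unadjusted p of 0.05, beside 2.3% of all probes.

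Levels of several matrix genes differed between the sets of embryos. Lamb1, the laminin beta 1 chain, ran from 26.5 to 72.9 in embryos 1 to 6 and from 5.41 to 15.3 in embryos 7 to 12, so the ranges did not overlap. It reached the minimum of 32 only in embryos 1 to 6, and a gene kept through a single set had to differ, so nothing more is read from it. Col3a1 was lower in embryos 7 to 12 by 1.12 on the log2 scale (median 107 against 246), Col9a1 by 0.76, Ptx3 by 0.74 and Col1a2 by 0.71. Vcan was higher by 0.86 (median 210.3 against 107), Lama1 by 0.53 and Col5a1 by 0.45. Over the 41 genes 26 were higher and 15 lower, with a median of 0.11, beside 0.06 over all genes. The ranges of the sets did not overlap in 1 of the 41 genes (2.44%), beside 9.04% of all genes. Embryo 6 of each group differed from embryos 1 to 5 by a median absolute log2 difference of 0.222 over the 41 genes, beside 0.241 over all genes. Lox and Fn1 were each higher by 1.02, Vcan by 0.98 and Lum by 0.88, and Timp1 was lower by 0.97.

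The matrix genes varied to different degrees among embryos of the same group and set. Their median within-group SD was 0.311 on the log2 scale, against 0.210 over all 9678 genes. The SD was 0.673 in Ptx3 and 0.609 in Lamc3, which were chosen for their values, and 0.512 in Col1a1, 0.501 in Tnc and 0.496 in Lum. It was smallest in Serpinh1, at 0.125.

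Chains that assemble into the same protein were compared embryo by embryo, as deviations from the mean of the group and set, with 18 embryos in each set. Pairs of genes from different proteins were not compared, so a correlation is not shown to be particular to chain partners. The Col4a1 and Col4a2 chains, which wind together into the collagen IV trimer, followed each other closely. Pearson's r was 0.94 in embryos 1 to 6 and 0.83 in embryos 7 to 12, Spearman's rho 0.89 and 0.84, and r without the 2 embryos farthest from the median of Col4a1 was 0.91 and 0.85. Permutation p-values adjusted over 8 relations were 4e-05 and 0.000107. In this test 1e-05 was the smallest unadjusted p that 100000 permutations can give. Same-numbered embryos deviated together over all genes, so the embryos are not fully independent, and the 6 numbers of a set were also permuted as units. This exact test over 720 orders gave an adjusted p of 0.00556 in both sets, from an unadjusted 0.00139, the smallest it can give.

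The genes for these chains lie head to head on chromosome 8, with starts 21 bases apart, and their promoter windows, shown because they share 78 bases, are chr8:11312777-11313076 on the minus strand for Col4a1 and chr8:11312555-11312854 on the plus strand for Col4a2. Capitals mark the same motifs as above.
Col4a1: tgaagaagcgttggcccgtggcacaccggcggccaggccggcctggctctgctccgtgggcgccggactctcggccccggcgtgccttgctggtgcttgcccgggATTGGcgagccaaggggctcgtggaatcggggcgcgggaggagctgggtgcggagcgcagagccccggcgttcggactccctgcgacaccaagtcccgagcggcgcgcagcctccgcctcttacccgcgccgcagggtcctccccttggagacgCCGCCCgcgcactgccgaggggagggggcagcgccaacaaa
Col4a2: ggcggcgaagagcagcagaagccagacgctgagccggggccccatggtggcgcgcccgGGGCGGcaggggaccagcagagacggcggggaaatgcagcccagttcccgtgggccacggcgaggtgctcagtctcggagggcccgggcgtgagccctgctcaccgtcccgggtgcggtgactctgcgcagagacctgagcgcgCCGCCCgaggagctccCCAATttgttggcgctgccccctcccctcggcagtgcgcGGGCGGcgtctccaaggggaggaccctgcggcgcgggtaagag

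The Col4a1 window held a CCAAT box at -145 and a GC box at 9, and the Col4a2 window held a CCAAT box at -32 and GC boxes at -192, -48 and 7, counted from each gene's own start. Their GC contents were 74.0% and 73.7%.

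**Figure D5:**
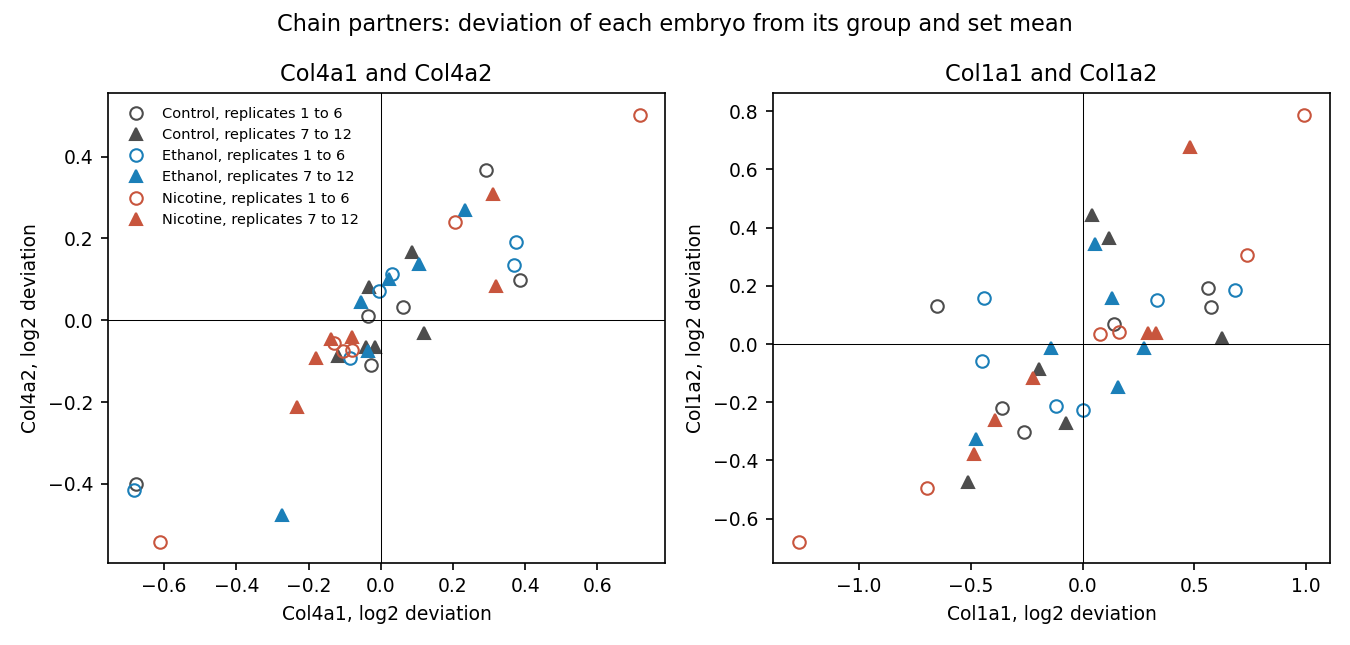
Deviation of each embryo from the mean of its group and set (log2 scale) for Col4a1 against Col4a2 and Col1a1 against Col1a2, with open circles for embryos 1 to 6, triangles for embryos 7 to 12 and colours for the groups. The points of Col4a1 and Col4a2 rise together in both sets (r = 0.94 and 0.83), those of Col1a1 and Col1a2 with more scatter (r = 0.80 and 0.67).

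The chains of type I collagen followed the same course. Col1a1 and Col1a2 gave r = 0.80 in embryos 1 to 6 and 0.67 in embryos 7 to 12 (rho 0.74 and 0.71; permutation p adjusted over 8 relations 0.0002 and 0.00358; 0.64 and 0.71 without the 2 farthest embryos). With numbers permuted as units the adjusted exact p was 0.00556 and 0.0244. Col5a1 and Col5a2 gave r = 0.89 (rho 0.87, adjusted permutation p 4e-05, 0.74 without the 2 farthest) in embryos 1 to 6. In embryos 7 to 12 their r was 0.42 (rho 0.50), with an adjusted permutation p of 0.0943 by Pearson and 0.0436 by Spearman, and r of 0.47 without the 2 farthest. With numbers permuted as units the adjusted exact p for Col5a1 and Col5a2 was 0.00556 and 0.087, so the relation in embryos 7 to 12 did not pass. The laminin chains Lamb1 and Lamc1 gave r = 0.43 and 0.27 (rho 0.54 and 0.33), with adjusted permutation p by Pearson of 0.0943 and 0.289, and by Spearman of 0.0303 and 0.188. With numbers permuted as units the adjusted exact p was 0.0952 and 0.315, and neither set passed. Without the 2 farthest embryos r was 0.33 and 0.30. All Lamb1 values of embryos 7 to 12 lay below the minimum of 32, where the array's precision is limited. The partner of Col6a1, Col6a2, was not kept and that relation was not analysed.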

How the data were processed

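The intensities were deposited by the authors on a linear scale, with GenomeStudio 1.9.0 named in the submitters' processing notes. How they were background-corrected or normalized was not stated in the labels. The 36 arrays had a mean intensity of 357.7 each and medians of 10.7 to 10.8 in the deposited values. The count of arrays sets the precision. A separate deposited table with 72 signal and detection columns was not used because its column names match no sample label.

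Of 45281 probes, 34885 had 1 gene symbol in the platform annotation, 18 several and 10378 none, and 29 symbols were updated. The 16927 probes with an intensity of at least 32 on at least 12 arrays were kept. The log2 of the intensity plus a pseudocount of 16 was fitted with limma 3.58.1 in R 4.3.3 over all 36 arrays (33 residual degrees of freedom), two-sided, with Benjamini-Hochberg adjustment over all kept probes and a threshold of 0.05. Differences are on this scale, which understates changes of dim probes. A second fit had the replicate number as a block. Deviations of same-numbered arrays from their group means correlated above 0.1 in 36 of 36 pairs (mean 0.589, lowest 0.243). Of pairs with other numbers, 174 of 396 did (mean -0.05). The numbers were therefore taken to pair the arrays. Same-numbered arrays always lie in the same set, and the part of the set in their correlation was not tested.

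The members and lists were chosen with earlier results of these data known. The genes named are the 4 chosen members, in each comparison those past the threshold in either fit and the 6 of smallest p, the 4 of smallest interaction p, the chain partners, and, in each wider list, those called in either fit plus the 2 with the lowest p for nicotine against control. Other members are given for completeness, and in the set comparison those named were chosen after their values were seen. The interaction was fitted for all members, and the 4 chosen ones were left out of its counts. Statistics were tested on simulated data, and the alternatives tried concern the pseudocount, the filter, array weights, blocks, sets, other probes and left-out replicates.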

Additional observations from a re-analysis of the deposited data

How the results depend on the processing

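The count of members past the threshold was 0 in every comparison under another pseudocount, another filter, array weights, a block for the replicate set and either replicate set alone, and the median of the 37 members stayed below 0 for nicotine against control and against ethanol. The ethanol median, 0.03 in the report, was -0.0028 with array weights and -0.03 in replicates 7 to 12 alone. The block for replicate number raised the count over all probes from 1 to 194 for nicotine against control and from 0 to 69 for nicotine against ethanol, and it changed no call of a member. With the block, leaving out single numbers gave 0 to 256 calls over all probes for nicotine against control and 0 to 178 for nicotine against ethanol. The lowest adjusted p, in Lox, was 0.0608. Without the block, leaving out each replicate number in turn gave 0 members in every comparison. With the block, leaving out 1 number gave 0 to 2 members for nicotine against control: 1 without replicate 1 (Lox), 2 without replicate 4 (Col2a1 and Mmp14) and 2 without replicate 9 (Dcn and Lox). For nicotine against ethanol it gave 0 to 3, with 3 without replicate 5 (Mmp14, Nid1 and Timp3). The cause was not tested.

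Among the 6 genes of smallest p named in each comparison of groups, signs changed for 3. Nid1 in ethanol against control was -0.2102 by its other probe. Lamc1 in ethanol against control was -0.0221 in replicates 7 to 12 alone, and Timp3 in nicotine against ethanol was 0.058 by its other probe. Of the 4 genes that chose the group, the ethanol difference also changed sign in Ptx3, Lamc3 and Serpinf1, to 0.04, 0.06 and 0.05 in replicates 1 to 6 alone, and when single replicate numbers were left out it ran from -0.20 to 0.04 in Lamc3 and from -0.10 to 0.04 in Serpinf1. Leaving out nicotine replicates 2 and 3, together or singly, or control replicate 3, was chosen after seeing the data, as was permuting the replicate numbers as units. The median difference of the 37 members was -0.12 without nicotine replicates 2 and 3 and ranged from -0.26 to -0.16 when each replicate number was left out. Of 34 further kept probes for 23 member genes, 28 had the same direction as the main probe for nicotine against control. Kept probes of Fbln1 (-0.05 and -0.01), Fn1 (0.10 and 0.08), P3h1 (0.04) and Timp3 (0.04) had the opposite sign. Probes near the minimum of 32, such as Lamb1 and Lamc3, are little above background, and their differences are understated.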
